A study of Homo sapiens with 6 samples.

Results

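Kallikrein-related peptidases are secreted serine proteases encoded by a run of neighbouring genes on the long arm of chromosome 19. Of the 34811 genes in the count table, the 10 described here were taken by symbol: KLK4, KLK5, KLK6, KLK7, KLK8, KLK9, KLK10, KLK11, KLK13 and KLK14. They were measured by RNA-seq in OVCAR-3, an established human ovarian carcinoma line. OV3/COX1KD cells carry a pRS plasmid with an shRNA (short hairpin RNA) against COX-1, the cyclooxygenase encoded by PTGS1, and OV3/SCR cells carry a scrambled shRNA in the same vector. Both lines were selected with puromycin, grown in RPMI-1640 with 10% FBS and harvested below confluence, and each was sequenced as 3 libraries from separately harvested populations. Each condition was a single clone (OV3/COX1KD clone #2 and OV3/SCR clone #1), so clone and knockdown cannot be told apart, and p-values measure the spread between passages of these clones. The comparison asks how kallikrein mRNA differed between the COX-1 depleted and control cells.

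The libraries held between 25291505 and 27391538 counted reads. Levels are given as CPM, counts in 1000000 counted reads after TMM scaling, which a few abundant genes hardly move. On this scale a detection floor of 3 counts lay between 0.113 and 0.120 CPM, a limit for counting error only, because PCR copies are not separate molecules. Reads of PTGS1 numbered 713, 658 and 641 in OV3/SCR and 456, 486 and 501 in OV3/COX1KD libraries, so the target was lower but still present in every OV3/COX1KD library. The mean mRNA level of PTGS1 in OV3/COX1KD cells was 73.3% of that in OV3/SCR cells, a fall of 1.36-fold. This value is for mRNA only. The study reported robust loss of COX-1 protein in this clone by Western blot, and less prostaglandin made from arachidonic acid. All 7 markers listed for this epithelial ovarian line (PAX8, WT1, EPCAM, KRT8, KRT18, MUC16 and WFDC2) were counted in every library. Of these, 5 were higher and 2 lower in OV3/COX1KD cells, while 25.8% of all tested genes were higher and 22.1% lower. MUC16 was 2.56-fold higher, and the 2 lower markers were PAX8 (1.69-fold) and WFDC2 (1.22-fold). In bulk RNA, fewer cells that express a gene and less RNA per cell cannot be told apart.

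As background, kallikrein-related peptidases are made as inactive proenzymes with a signal peptide and a short propeptide, and become active when the propeptide is cut off, often by another kallikrein. In skin, KLK5 and KLK7 cut the proteins that hold cornified cells together, and KLK5 can activate KLK7 and KLK14. The inhibitor LEKTI, encoded by SPINK5, restrains them. Several of these genes, among them KLK5, KLK6, KLK7, KLK8 and KLK10, are known to be expressed in ovarian carcinoma, where their secreted products have been studied as tumor markers.

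All 10 genes lie on the minus strand of chromosome 19 (GRCh37, the hg19 build), in the order of their numbers from KLK4 (ENSG00000167749, 51409607 to 51414651) to KLK14 (ENSG00000129437, 51580752 to 51587502). The genes that the results turn on are KLK5 (ENSG00000167754, 51446559 to 51456349), KLK6 (ENSG00000167755, 51461887 to 51472929), KLK7 (ENSG00000169035, 51479724 to 51487355), KLK8 (ENSG00000129455, 51499263 to 51505967) and KLK10 (ENSG00000129451, 51515995 to 51523431). RefSeq start sites were matched for 9 of the 10 members (not KLK8, which was also higher in OV3/COX1KD cells), in 17 windows of 250 bases upstream of a start. The windows of 4 genes are printed because KLK5 and KLK7 differed between the conditions in one direction and KLK10 in the other, while KLK6, which lies between KLK5 and KLK7, gave no call. Where a gene had several starts, the outermost was used. The sequences are those of RefSeq on GRCh38.p14, minus strand, written 5′ to 3′ toward the start, with matches to the searched motifs in capitals.
KLK5, chr19:50953039-50953288: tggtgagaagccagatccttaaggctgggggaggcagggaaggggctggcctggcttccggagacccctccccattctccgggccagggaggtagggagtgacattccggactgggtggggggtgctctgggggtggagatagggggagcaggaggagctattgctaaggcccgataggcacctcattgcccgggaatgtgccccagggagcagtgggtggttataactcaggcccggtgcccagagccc
KLK6, chr19:50969592-50969841: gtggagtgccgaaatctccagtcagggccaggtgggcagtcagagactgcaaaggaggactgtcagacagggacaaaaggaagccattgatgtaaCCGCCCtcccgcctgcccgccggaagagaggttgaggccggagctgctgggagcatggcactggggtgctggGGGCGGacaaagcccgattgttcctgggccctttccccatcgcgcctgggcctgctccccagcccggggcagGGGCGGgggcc
KLK7, chr19:50984065-50984314: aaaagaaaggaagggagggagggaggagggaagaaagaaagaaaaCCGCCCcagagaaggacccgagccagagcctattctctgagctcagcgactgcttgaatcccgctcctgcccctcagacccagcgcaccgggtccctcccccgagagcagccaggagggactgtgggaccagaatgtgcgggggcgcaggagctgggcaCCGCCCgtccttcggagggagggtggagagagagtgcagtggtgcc
KLK10, chr19:51019862-51020111: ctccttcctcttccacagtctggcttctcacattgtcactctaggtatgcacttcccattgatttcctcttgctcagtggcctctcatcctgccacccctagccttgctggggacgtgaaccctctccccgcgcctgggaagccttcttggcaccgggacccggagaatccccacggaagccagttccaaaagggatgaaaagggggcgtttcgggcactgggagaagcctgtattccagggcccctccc

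Both strands were searched for 4 motifs. The TATA box was read as TATAAA and the GC box as GGGCGG. The AP-1 motif was read as TGANTCA. The CRE half-site was read as TGACG, which cannot fall within a match to the other motifs. Over all 35116 upstream windows of RefSeq genes, 10.7% held TATAAA, 42.6% GGGCGG, 6.57% TGANTCA and 21.2% TGACG. The GC box was in 10 of the 17 kallikrein windows, from 6 of the 9 genes, and TGACG in 4 windows from 3 genes (KLK4, KLK7 and KLK11). Windows of the same gene can overlap, as some of KLK7, KLK13 and KLK14 did, so the same site can be counted more than once. TATAAA and TGANTCA were in none of the 17. Of the printed windows, KLK6 held 3 GC boxes and KLK7 held 2, while KLK5 and KLK10 held none of the 4 motifs. The TGACG matches of KLK7 lay in its windows that are not printed. These matches are letters in a window, and counts per gene do not tell which start was used.

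KLK5, KLK7 and KLK8 were higher in OV3/COX1KD than in OV3/SCR cells, and KLK10 was slightly lower. KLK6, KLK11, KLK13 and KLK14 were tested and gave no call, and KLK4 and KLK9 had too few counts to test. The test was the quasi-likelihood F test of edgeR, Benjamini-Hochberg adjusted over the 17309 genes that passed a filter on low counts, and a gene was called at an FDR under 0.01. At this threshold 3 of the 8 tested members were higher and 1 was lower, while 25.8% of all tested genes were higher and 22.1% lower. With the added fold change above 2.5 used in the study, 1 member was higher (KLK7) and 0 were lower, beside 1.58% and 2.34% of all tested genes. By DESeq2 the count that was lower beyond 2.5-fold was also 0, and at an unadjusted p under 0.05 the same 4 members passed. The median log2 fold change was 0.18 over the 8 tested members and -0.009 over all tested genes. With 8 tested members, these counts describe the members only.

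KLK7 encodes the stratum corneum chymotryptic enzyme, the chymotrypsin-like member of the skin pair. It had 99, 112 and 139 counts in OV3/SCR replicates 1, 2 and 3, and 374, 332 and 347 in OV3/COX1KD replicates 1, 2 and 3. The lowest OV3/COX1KD value exceeded the highest OV3/SCR value, a separation seen upward in 32.5% of tested genes. Its level was 4.46 ± 0.844 CPM (SD, n = 3) in OV3/SCR and 13.7 ± 1.00 CPM (SD, n = 3) in OV3/COX1KD cells. The rise was 3.07-fold, or 1.62 on the log2 scale (standard error, SE, 0.11, edgeR FDR = 1.41e-10), with a 95% confidence interval of 2.62-fold to 3.60-fold. It was the largest rise among the 8 tested members. A test against a fold change of 2.5 itself (edgeR's glmTreat) called 0 members at an FDR under 0.01, so KLK7 did not pass it.

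KLK8 encodes neuropsin, a trypsin-like protease first described in brain and also made in skin. It had 279, 295 and 306 counts in OV3/SCR and 679, 706 and 717 in OV3/COX1KD libraries. The groups did not overlap and the libraries within each group lay close together. Its level was 11.2 ± 0.692 CPM (SD, n = 3) in OV3/SCR and 27.4 ± 0.710 CPM (SD, n = 3) in OV3/COX1KD cells (log2 fold change 1.29, SE 0.063, edgeR FDR = 1.14e-12). The estimate of 2.44-fold lay just inside the limit of 2.5 and its interval, 2.23-fold to 2.67-fold, spanned it. Without OV3/SCR replicate 3 the log2 fold change of KLK8 was 1.33 and the number of members higher beyond 2.5-fold was 2. With all libraries, a test against a fold change of 2.5 itself (edgeR's glmTreat) called 0. Exons of KLK9 share 10.9% of the exon bases of KLK8, and those of another same-strand gene of the annotation (ENSG00000269741, not counted in the table) share 40.1%.

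KLK5 encodes the stratum corneum tryptic enzyme, which can activate other kallikreins. It was the most abundant member, with 4566, 4333 and 4334 counts in OV3/SCR and 7636, 7285 and 7839 in OV3/COX1KD libraries. Here too the lowest OV3/COX1KD value exceeded the highest OV3/SCR value. Its level was 168 ± 2.59 CPM (SD, n = 3) in OV3/SCR and 296 ± 6.55 CPM (SD, n = 3) in OV3/COX1KD cells. The rise was 1.76-fold (95% confidence interval 1.68-fold to 1.84-fold), or 0.81 on the log2 scale (SE 0.030, edgeR FDR = 1.85e-14), and had the smallest standard error among the tested members. An antisense gene (ENSG00000269495) covers 12.2% of its exon bases and had at most 8 counts in any library. Whether the counting used strand was not given in the sources used here, so reads of overlapping antisense genes cannot be told apart.

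KLK10, once named normal epithelial cell-specific 1, is a family member described as lost in some tumors and raised in others. It was counted 2029, 2286 and 2040 times in OV3/SCR and 1736, 1762 and 1872 times in OV3/COX1KD libraries. OV3/SCR replicate 2 was the highest of the 6 and all OV3/COX1KD libraries were below all OV3/SCR libraries, a separation seen downward in 30.7% of tested genes. The level fell from 80.9 ± 6.06 CPM (SD, n = 3) to 69.9 ± 0.758 CPM (SD, n = 3), or -0.21 on the log2 scale (SE 0.045, edgeR FDR = 4.81e-04). This fall was 1.16-fold and far inside the limit of 2.5. Without OV3/SCR replicate 2 the log2 fold change of KLK10 was -0.15 and the edgeR FDR was 0.00684.

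KLK6 encodes neurosin, a trypsin-like protease studied as a serum marker of ovarian cancer. It had 210, 208 and 217 counts in OV3/SCR and 195, 233 and 211 in OV3/COX1KD libraries, and the groups overlapped. Its level was 8.09 ± 0.273 CPM (SD, n = 3) in OV3/SCR and 8.32 ± 0.850 CPM (SD, n = 3) in OV3/COX1KD cells (log2 fold change 0.041, SE 0.093, edgeR FDR = 0.726). The 95% confidence interval of 0.899-fold to 1.18-fold left out rises of the size of KLK5, KLK7 and KLK8. With total count scaling the sign of the KLK6 estimate turned, to -0.037, and without OV3/COX1KD replicate 2 it was -0.038. The antisense gene ENSG00000269495 covers 20.3% of the exon bases of KLK6.

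KLK14, a trypsin-like protease that KLK5 can activate, had 59, 39 and 64 counts in OV3/SCR and 58, 54 and 52 in OV3/COX1KD libraries. All OV3/COX1KD values fell within the range of the control values. The log2 fold change of KLK14 was 0.050 (SE 0.19, edgeR FDR = 0.837), with an interval of 0.785-fold to 1.36-fold, and it was -0.028 with total count scaling, -0.13 without OV3/SCR replicate 2 and -0.006 without OV3/COX1KD replicate 1. The interval includes no change, so a change within those bounds is neither shown nor excluded.

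The other 4 members had few counts or were near the floor. KLK11 (ENSG00000167757, 51525472 to 51531295), a trypsin-like protease also called hippostasin, had 7, 21 and 13 counts in OV3/SCR and 15, 11 and 18 in OV3/COX1KD libraries, with a log2 fold change of 0.13 (SE 0.37, edgeR FDR = 0.778). KLK13 (ENSG00000167759, 51558883 to 51568371), another trypsin-like member, had 9, 16 and 8 counts in OV3/SCR and 16, 11 and 11 in OV3/COX1KD libraries, with a log2 fold change of 0.23 (SE 0.37, edgeR FDR = 0.605). For both genes the groups overlapped and the intervals ran from 0.642-fold to 1.87-fold and from 0.692-fold to 2.00-fold, so that neither direction could be read. Without OV3/SCR replicate 1 the estimate for KLK11 was -0.19, and without OV3/COX1KD replicate 3 it was -0.011.

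KLK4, the protease that removes enamel proteins in developing teeth and is abundant in prostate, had 2, 6 and 0 counts in OV3/SCR and 1, 4 and 3 in OV3/COX1KD libraries. KLK9 (ENSG00000213022, 51505764 to 51512890), a chymotrypsin-like member, had 0, 1 and 0 counts in OV3/SCR and 0, 1 and 0 in OV3/COX1KD libraries, so that all 6 libraries were under the floor. Neither passed the filter and no fold change is given. The same-strand gene ENSG00000269741 covers 96.3% of the exon bases of KLK9. How the counting treated reads shared by overlapping genes was not given in the sources used here, so the count of KLK9 is uncertain.

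**Figure D1:**
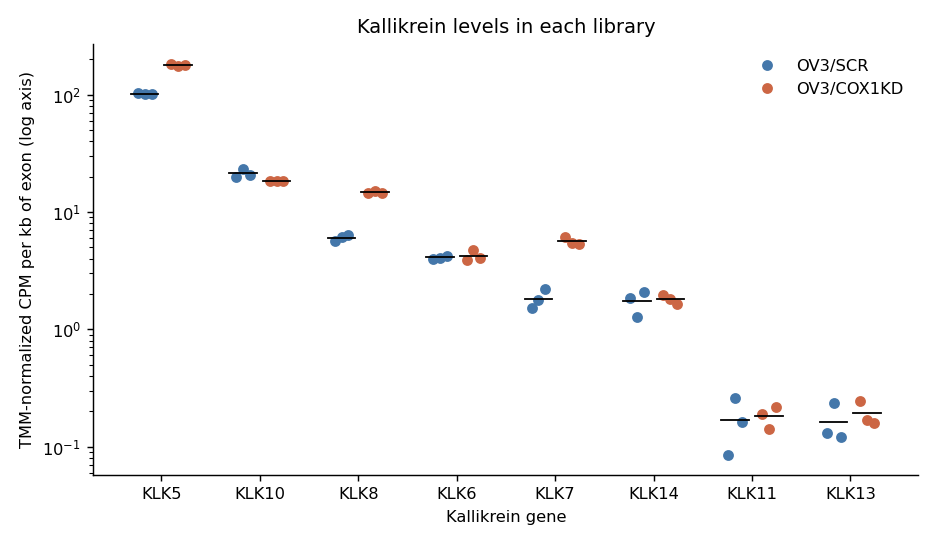
Each point is 1 library of OV3/SCR (blue) or OV3/COX1KD (orange) and each black line the mean of 3, with the level in TMM-normalized CPM per kb of exon on a log axis. KLK5, KLK8 and KLK7 sit higher in OV3/COX1KD with no overlap, KLK10 slightly lower, and KLK6, KLK14, KLK11 and KLK13 overlap. KLK7 moves from level with KLK14 to above KLK6.

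To compare genes with each other, levels were divided by exon length (CPM per kb of the union of exons in GENCODE 44 on GRCh37). In OV3/SCR cells KLK5 led with 101 to 104 CPM per kb over the 3 libraries, followed by KLK10 with a mean of 21.3, KLK8 with 5.61 to 6.35 and KLK6 with 3.99 to 4.25. KLK7, with 1.52 to 2.20 CPM per kb, overlapped KLK14, with 1.26 to 2.08, and KLK11, with 0.0844 to 0.259, overlapped KLK13, with 0.120 to 0.237. The other neighbours in this order did not overlap. Among 16800 tested genes with a length, KLK5 stood on average at percentile 98.3 of the level per length, KLK10 at 88.2, KLK8 at 63.8, KLK6 at 54.9 and KLK7 at 38.7.

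In OV3/COX1KD cells the levels of KLK5 ran from 176 to 184 CPM per kb, of KLK10 from 18.2 to 18.5 and of KLK8 from 14.4 to 15.1. KLK7, with 5.32 to 6.07, now stood above KLK6, with 3.92 to 4.71, and above KLK14, with 1.64 to 1.94. Only KLK13 (0.160 to 0.246) and KLK11 (0.141 to 0.217) still overlapped. KLK7 stood at percentile 61.9 of tested genes, KLK8 at 81.9 and KLK5 at 99.0, while KLK6 was at 55.5 and KLK10 at 85.8. With the length of the longest transcript in place of the exon union, the order changed only between KLK11 and KLK13, in OV3/COX1KD cells.

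The 10 genes together had 7260, 7317 and 7121 counts in OV3/SCR and 10710, 10399 and 11070 in OV3/COX1KD libraries. This sum was 276 ± 4.27 CPM (SD, n = 3) in OV3/SCR and 419 ± 5.95 CPM (SD, n = 3) in OV3/COX1KD cells. KLK5 gave 59.2% to 62.9% of the family's reads in OV3/SCR libraries and 70.1% to 71.3% in OV3/COX1KD libraries. The share of KLK10 was 27.9% to 31.2% in OV3/SCR and 16.2% to 16.9% in OV3/COX1KD libraries. Shares also fall when the sum grows, and the level of KLK10 itself fell only 1.16-fold. KLK8 went from 3.84% to 4.30% in OV3/SCR up to 6.34% to 6.79% in OV3/COX1KD libraries, and KLK7 from 1.36% to 1.95% up to 3.13% to 3.49%. Most of the sum is thus set by KLK5, which has the largest counts.

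**Figure D2:**
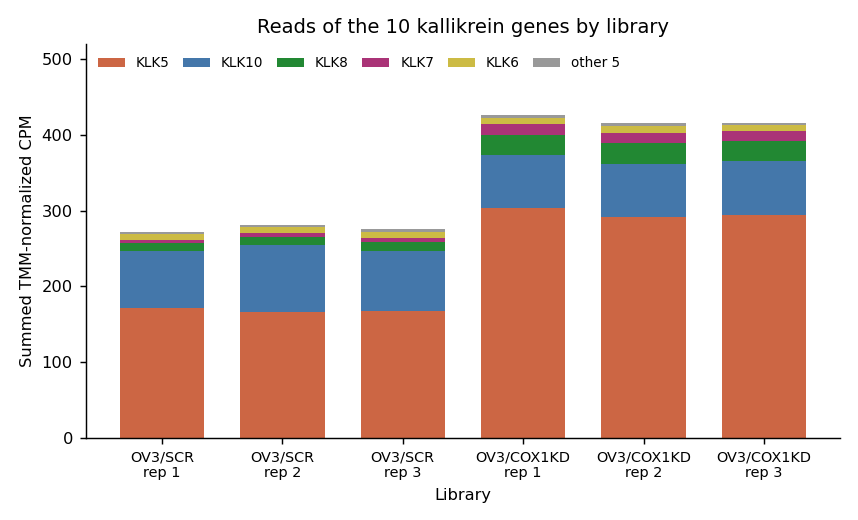
Bars give the summed TMM-normalized CPM of the 10 kallikrein genes in each library, split by gene. The 3 OV3/COX1KD bars (415 to 426 CPM) are taller than the 3 OV3/SCR bars (272 to 281 CPM), mainly through KLK5, while the KLK10 segment is slightly shorter.

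Ratios between genes within a library do not depend on library scaling, and were computed, after the values were seen, for all 28 pairs of the 8 tested members. KLK7 had 2.2, 2.6 and 3.2 counts per 100 counts of KLK5 in OV3/SCR and 4.9, 4.6 and 4.4 in OV3/COX1KD libraries. KLK8 had 6.1, 6.8 and 7.1 per 100 counts of KLK5 in OV3/SCR and 8.9, 9.7 and 9.1 in OV3/COX1KD libraries. For both ratios all OV3/COX1KD values were above all OV3/SCR values. KLK7 had 35.5, 38.0 and 45.4 counts per 100 of KLK8 in OV3/SCR and 55.1, 47.0 and 48.4 in OV3/COX1KD libraries, again without overlap but with the closest values nearly touching. KLK10 went from 44.4, 52.8 and 47.1 counts per 100 of KLK5 in OV3/SCR to 22.7, 24.2 and 23.9 in OV3/COX1KD libraries. In all 16 of the 28 pairs whose ranges did not overlap, the exact two-sided permutation p was 0.10. This is the smallest that 3 libraries against 3 allow, so that no pair could pass 0.05. The 28 pairs reuse the same 8 genes, so they are not separate observations. No share was computed over pairs of all tested genes, so the count of 16 has no background to be read against. Taken singly, which is a different measure, 32.5% of all tested genes separated upward and 30.7% downward.

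Along the cluster, KLK5, KLK7 and KLK8 rose, KLK6, which lies between KLK5 and KLK7, gave no call, and KLK10, beyond KLK8 and KLK9, fell. Of the other kallikreins, KLK1, the tissue kallikrein that releases kinins, had 10, 17 and 13 counts in OV3/SCR and 27, 20 and 15 in OV3/COX1KD libraries, and gave no call (log2 fold change 0.66, SE 0.32, edgeR FDR = 0.0860). KLK2 had at most 6 counts and KLK12 at most 1 count in any library, and neither was tested.

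**Figure D3:**
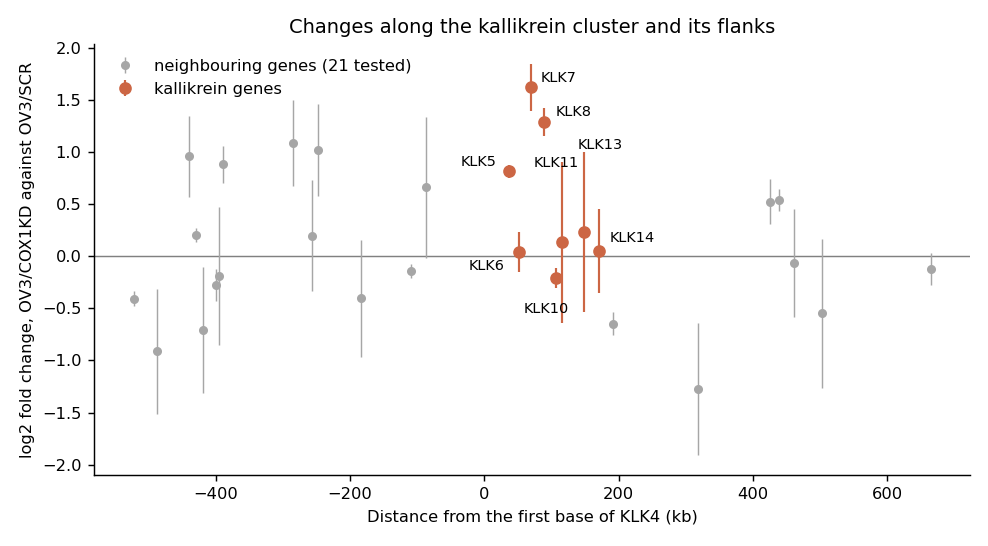
Points are log2 fold changes (OV3/COX1KD against OV3/SCR) and bars their 95% confidence intervals, placed by the distance in kb from the first base (lowest coordinate) of KLK4. Orange marks the 8 tested kallikreins, with KLK7, KLK8 and KLK5 above 0 and KLK10 below, and grey the 21 tested neighbours within 500 kb, which lie on both sides of 0.

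Within 500 kb of the members on either side, the count table held 52 other genes, KLK1, KLK2 and KLK12 included, of which 21 were tested. Of these, 7 were higher, 6 lower and 8 gave no call, with a median log2 fold change of -0.12, beside 25.8% and 22.1% of all tested genes. The 4 with the largest changes were CD33, a receptor of myeloid cells (log2 fold change -1.28), SYT3, a synaptotagmin (1.08), SHANK1, a postsynaptic scaffold (1.02), and FAM71E1 (0.96). CD33 had 38, 32 and 27 counts in OV3/SCR and 9, 9 and 21 in OV3/COX1KD libraries, and without OV3/SCR replicate 1 its FDR was 0.0104 and the count of lower neighbours 3. CTU1, a tRNA thiolation enzyme and the nearest tested gene beyond KLK14, named after its values were seen, had 795, 790 and 804 counts in OV3/SCR and 492, 473 and 524 in OV3/COX1KD libraries (log2 fold change -0.65, SE 0.053, edgeR FDR = 2.25e-09). The flanks of the cluster held changes of both signs, as did all tested genes, so this is not particular to the flanks.

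Of 13 listed inhibitors of kallikreins, 11 were in the table and 7 were tested, of which 1 was higher, 0 were lower and 6 gave no call, with a median log2 fold change of -0.060. Of all 17309 tested genes, 25.8% were higher, 22.1% lower and 9016 gave no call. By DESeq2 the number lower was also 0. At an unadjusted p under 0.05 SERPINB6, named after its values were seen, was lower too (log2 fold change -0.11, edgeR FDR = 0.0451), and with total count scaling the number of lower inhibitors was 2. SPINT2, a Kunitz-type inhibitor of membrane serine proteases, had 50753, 48511 and 49091 counts in OV3/SCR and 64501, 61930 and 67297 in OV3/COX1KD libraries. It was higher in every OV3/COX1KD library, by 1.33-fold (log2 fold change 0.42, SE 0.027, edgeR FDR = 6.77e-11). SPINK5, which encodes LEKTI and is named here after its values were seen, had 19, 30 and 27 counts in OV3/SCR and 23, 24 and 19 in OV3/COX1KD libraries, which overlapped (log2 fold change -0.17, SE 0.26, edgeR FDR = 0.596).

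Of 12 genes listed as substrates and receptors, 9 were tested, of which 3 were higher and 6 lower. The median log2 fold change was -0.27, and 25.8% of all tested genes were higher and 22.1% lower. The study had already reported FN1, PLAU, PLAUR and CDH1 as changed in these libraries. The count for this list is therefore not independent of earlier results and describes the listed genes only. FN1, which encodes the matrix protein fibronectin, fell from 31.3 to 3.37 CPM (log2 fold change -3.21, SE 0.087, edgeR FDR = 1.66e-16), the only one of the list past 2.5-fold. F2RL2, which encodes the protease-activated receptor PAR3, had 82, 105 and 97 counts in OV3/SCR and 42, 37 and 36 in OV3/COX1KD libraries (log2 fold change -1.27, SE 0.17, edgeR FDR = 2.35e-06). Without OV3/SCR replicate 1 or without OV3/COX1KD replicate 1, and with total count scaling, 2 genes of the list were lower beyond 2.5-fold. CDH1, the gene for the adhesion protein E-cadherin, was higher (0.85) and PLAU, the urokinase gene, was lower (-0.69 on the log2 scale). F2R, which encodes PAR1, was higher (log2 fold change 0.47, edgeR FDR = 4.05e-09), and F2RL1, which encodes PAR2, a receptor that KLK5, KLK6 and KLK14 can cleave, was lower (log2 fold change -0.16, edgeR FDR = 0.00103). Both were named after their values were seen, and the FDR of F2RL1 was 0.0186 without OV3/SCR replicate 3. DSC1, a desmocollin of the skin's corneodesmosomes and also named after its values were seen, was close to the threshold (log2 fold change 0.50, edgeR FDR = 0.00948, replicate block FDR = 0.0127). It lost its call in 11 of 13 alternatives, among which DESeq2 with and without the normal prior share their p-values.

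Among 10 other secreted or membrane-anchored proteases of the trypsin fold, 9 were tested, of which 5 were higher, 2 lower and 2 gave no call, with a median log2 fold change of 0.61, beside the same 25.8% and 22.1% of all tested genes. TMPRSS3, a transmembrane serine protease, had 22, 21 and 30 counts in OV3/SCR and 72, 63 and 61 in OV3/COX1KD libraries, a rise of 2.74-fold (log2 fold change 1.45, SE 0.20, edgeR FDR = 4.49e-06). TMPRSS4, of the same class, was counted 1101, 1061 and 1078 times in OV3/SCR and 469, 426 and 440 times in OV3/COX1KD libraries, a fall of 2.37-fold (log2 fold change -1.25, SE 0.054, edgeR FDR = 1.81e-13). These genes of 1 class thus moved in opposite directions, each without overlap between the groups. PRSS8, which encodes prostasin, was 1.88-fold higher (log2 fold change 0.91, SE 0.035, edgeR FDR = 3.36e-14). PRSS3, a trypsinogen gene, was also higher (0.97 on the log2 scale, SE 0.21, edgeR FDR = 5.10e-04), but its near-identical trypsinogen relatives make its count uncertain. With total count scaling 1 gene of the list was lower beyond 2.5-fold, and with the normal prior of DESeq2 0 were higher beyond it.

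**Figure D4:**
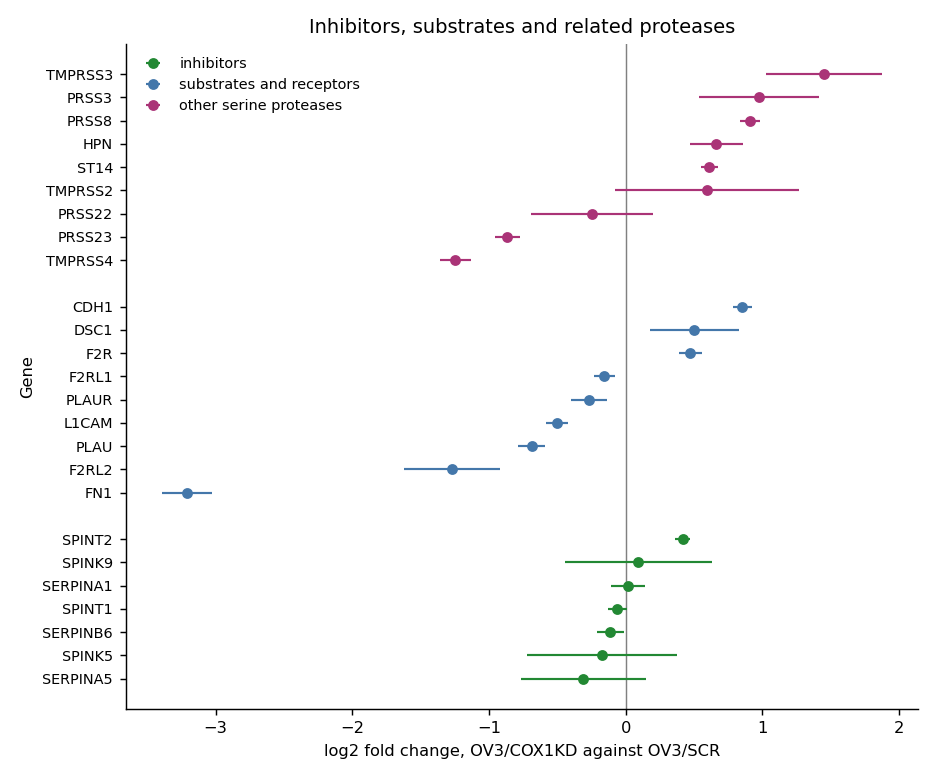
Points are log2 fold changes (OV3/COX1KD against OV3/SCR) of the tested inhibitors (green), substrates and receptors (blue) and other serine proteases (purple), with 95% confidence intervals. Among the inhibitors SPINT2 lies clearly above 0, FN1 lies lowest at -3.21, and TMPRSS3 and TMPRSS4 lie at opposite ends of the proteases.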

How the data were processed

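RNA-seq was performed on 3 OV3/SCR and 3 OV3/COX1KD libraries. Per the labels and the study's methods, reads were aligned with TopHat2 2.0 to hg19 (GRCh37). The authors assigned them to genes with HTSeq and deposited the resulting raw counts, which carry no normalization. The gene annotation and strand setting were not given in the sources used here.

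Differential expression over 34811 genes used edgeR 4.0.16 (R 4.3.3): TMM scaling, filterByExpr (17309 genes kept), glmQLFit and glmQLFTest with 1 factor, the condition, and Benjamini-Hochberg adjusted FDR. The standard error was the size of the log2 fold change divided by the square root of F. The biological coefficient of variation was 3.21%, between passages of 1 clone per condition. Replicate pairs within a condition differed by more than sampling noise (chi-square per degree of freedom 1.82 to 6.40). The highest values were those of OV3/COX1KD replicate 2 against replicates 1 and 3 (4.92 and 6.40). OV3/COX1KD replicates 1 and 3 gave 1.91. Without OV3/COX1KD replicate 2, 4852 genes were higher and 4137 lower at an FDR under 0.01, against 4473 and 3820 with all libraries. The scripts were tested on simulated counts. Positions and exon lengths came from GENCODE 44 on GRCh37 and upstream sequences from RefSeq (GRCh38.p14). Protein features were planned but not used here.

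The members and lists were chosen with earlier results of these data known. All members were named, and from each list the genes past 2.5-fold at an FDR under 0.01, otherwise up to 4 with the largest changes past that FDR. Other genes are said to be named after their values were seen. Alternatives were RLE and total count scaling, no filter, a minimum of 10 counts per library, DESeq2 1.42.0 (unshrunk, and shrunk by a normal prior), a replicate block, glmTreat, and leaving out each library.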

Additional observations from a re-analysis of the deposited data

How the results depend on the processing

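The calls of KLK5, KLK7, KLK8 and KLK10, the same 4 members each time, held under all 13 alternatives to normalization, filter, test and library set. Their log2 fold changes were 0.74 to 0.84, 1.46 to 1.78, 1.21 to 1.33 and -0.29 to -0.15. The normal prior of DESeq2 changes estimates only, so at the FDR alone its calls repeat those of DESeq2 and are no separate check. The 13 do not include glmTreat. The sign of the KLK6 estimate turned with total count scaling (-0.037), as did that of KLK14 (-0.028). Across the 6 fits that each left out 1 library, the estimate ran from -0.038 to 0.090 for KLK6, from -0.19 to 0.58 for KLK11 and from -0.13 to 0.20 for KLK14. With at least 10 counts in every library KLK11 and KLK13 could not be fitted. The number of members higher beyond 2.5-fold was 0 with glmTreat and 1 to 2 when a library was left out.

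With total count scaling, 2 inhibitors were lower at an FDR under 0.01, and 2 substrates or receptors, 1 other serine protease and 1 neighbour were lower beyond 2.5-fold. With the normal prior of DESeq2, 0 other serine proteases were higher beyond 2.5-fold. Leaving out a library gave 1 to 2 substrates or receptors lower beyond 2.5-fold, 3 to 6 neighbours lower at an FDR under 0.01, 0 to 1 higher (1 without OV3/SCR replicate 1) and 0 to 1 lower beyond 2.5-fold (1 without OV3/SCR replicate 3 or OV3/COX1KD replicate 3). Over all genes, 274 were higher and 405 lower beyond 2.5-fold, against 172 and 228 with at least 10 counts in every library, 124 and 164 with the normal prior, where fewer genes were tested or estimates are pulled toward 0 by construction, and 82 and 130 with glmTreat. The summed level of the 10 members was 283 CPM in OV3/SCR and 407 CPM in OV3/COX1KD cells with total count scaling. The cause of the other shifts was not tested.

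The labels mention replicate pairs but not what a shared number marks. Same-numbered libraries deviated together with correlations across genes of 0.00447 to 0.0424, and 2 of 6 libraries correlated best with their own number. With the replicate block 3 members were higher and 1 lower, 4437 genes were higher and 3796 lower, and the calls of DSC1 and of the neighbour ENSG00000269404, named after its values were seen, were lost. Counts near the floor limit KLK4, KLK9, KLK11 and KLK13.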
